A study of Mus musculus with 4 samples.

Results

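The T-bet and CD11c B cell programme was examined through 8 of the 38087 genes in the deposited table: the transcription factor genes Tbx21 and Zeb2, the surface protein genes Itgax and Fcrl5, and the receptor genes Il21r, Tlr7, Ifngr1 and Ifngr2. They were matched by gene symbol, and they were chosen by their differences between these KO and WT libraries, so their values in the comparison below are a description and carry no test. Wild-type (WT) samples were 2 libraries titled WT rep1 and rep2, from C57BL/6 mice of wild-type genotype. Samples titled Becn1-M-KO (here KO) were 2 libraries from C57BL/6 mice with the genotype label Becn1 KO. Every sample carries the tissue label cervical lymph node and the age postnatal week 20. The series text describes the KO mice as tumour-bearing, with Becn1, an autophagy gene, removed from myeloid cells only, and their samples as B cell lymphomas, so genotype cannot be told apart from tumour, nor, as the reads of sex-linked genes given with Tlr7 show, from sex. The labels name neither the promoter that drives the deletion nor the animal behind each sample, so spread within a group may be technical. In whole tissue, fewer cells of a type and less RNA per cell cannot be told apart.

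T-bet, encoded by Tbx21, is the T-box factor that directs type 1 responses in T and NK cells. B cells take it up as well when signals through the IL-21 receptor, the RNA sensor TLR7 and the interferon gamma receptor coincide, and such cells, often called age-associated or atypical memory B cells, carry the integrin CD11c (Itgax) and the Fc receptor-like protein FCRL5 and need the repressor ZEB2. They are known for secreting class-switched antibody in autoimmunity, infection and ageing. Apart from Fcrl5, these genes are not particular to B cells: Itgax marks dendritic cells and many macrophages, Tbx21 marks NK cells and type 1 T cells, and Zeb2, Tlr7 and the interferon gamma receptor are abundant in myeloid cells.

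The promoters shown are those of the 3 genes with the largest log2 fold changes between KO and WT libraries. The bases are those before the RefSeq transcript start (GRCm38.p6, the assembly of mm10), up to the first annotated exon, 5′ to 3′ on the gene's own strand. Capitals mark the letters CACCTG or, on the other strand, CAGGTG, the E-box that ZEB factors bind.
Tbx21, chr11:97115332-97115581, minus strand: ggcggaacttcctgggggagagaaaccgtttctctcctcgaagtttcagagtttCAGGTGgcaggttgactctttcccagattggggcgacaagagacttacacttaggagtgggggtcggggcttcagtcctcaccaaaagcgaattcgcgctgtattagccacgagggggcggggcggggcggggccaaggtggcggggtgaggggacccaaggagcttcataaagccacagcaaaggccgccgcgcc
Itgax, chr7:128129300-128129546, plus strand: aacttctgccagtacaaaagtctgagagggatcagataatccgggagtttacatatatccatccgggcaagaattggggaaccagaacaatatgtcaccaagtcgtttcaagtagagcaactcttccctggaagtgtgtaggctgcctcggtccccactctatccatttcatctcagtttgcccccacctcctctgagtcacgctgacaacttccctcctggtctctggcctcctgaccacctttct
Fcrl5, chr3:87435532-87435772, plus strand: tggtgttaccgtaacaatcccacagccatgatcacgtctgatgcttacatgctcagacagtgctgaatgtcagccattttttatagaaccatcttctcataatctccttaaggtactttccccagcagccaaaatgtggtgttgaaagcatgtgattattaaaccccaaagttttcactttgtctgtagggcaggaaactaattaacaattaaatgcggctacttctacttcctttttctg

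Motifs of 5 kinds were searched on both strands in the 250 bases before each start, for the 7 members found in the RefSeq promoter table used here, all but Tlr7 (10 windows, 4 of them at Zeb2, of which 2 overlap). The E-box stands once, in the Tbx21 window, 196 bases before the start, and 17.2% of all 32817 promoter windows hold it. The site for STAT factors, TTCNNNGAA, stands in the 2 overlapping Zeb2 windows as TTCTGTGAA, and 7.01% of all windows hold it. All 250 bases of both windows lie in annotated exons, those of Zeb2 among them. The T-box site AGGTGTGA (1.12% of all windows), the core of the interferon-stimulated response element GAAANNGAA (7.12%) and the PU.1 site GAGGAAGT (2.44%) were not found as these letters in any member's window. A match is a string of letters and does not show that a factor binds there.

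The libraries held 15604247 to 20067004 reads. The first WT library stands apart: it had 15.7 CPM (reads per 1000000 reads of the library) for 8 B cell markers summed, where the second WT library had 1561 and the KO libraries 2655 and 2549. Its 8 T cell markers summed to 1.92 CPM, against 556, 460 and 445, with Cd3e at 1 read. The 8 salivary gland and epithelial markers summed to 331072 and 64254 CPM for WT and to 104 and 3481 CPM for KO, with 4 called lower and Krt8 and Aqp5 at 0 in KO replicate 1, so salivary gland transcripts were abundant in both WT libraries. The 8 monocyte and macrophage markers summed to 124 and 482 CPM for WT and to 2040 and 1931 CPM for KO; 7 of 8 had KO above both WT libraries, and 1, Fcgr1, was called higher. Neutrophil markers (6 genes) summed to 1.73 and 22.8 CPM for WT and to 90.0 and 99.2 CPM for KO. Most of the KO sum came from 1 gene, Csf3r (1.49 and 10.6 CPM in WT, 74.8 and 79.8 in KO). S100a8, S100a9 and Ly6g were above WT replicate 2 in both KO libraries. Cxcr2 (5.65 CPM in WT replicate 2, 3.20 and 4.39 in KO) and Retnlg (0.392, then 0.320 and 0.199) were below it. In WT replicate 1, 4 of the 6 (S100a8, S100a9, Retnlg, Ly6g) were at 0. Dendritic cell markers (7 genes) summed to 6.26 and 254 CPM for WT and to 219 and 215 CPM for KO. Becn1 itself stood at 54.8 and 63.4 CPM in the WT libraries and at 49.5 and 53.3 CPM in KO after TMM scaling, which sets the libraries on a common scale. The sign of that difference turns with library totals alone, and a whole-tissue level does not check a deletion confined to myeloid cells. The KO values that follow are therefore given against both WT libraries and against WT replicate 2 alone. The part of salivary, epithelial, macrophage and neutrophil RNA in these differences was not tested.

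Tbx21 (ENSMUSG00000001444), at chr11:97098071-97115331 in mm10, had 11 and 102 reads in the WT libraries and 681 and 891 reads in the KO libraries. CPM below are TMM-scaled unless the library total is named, and on that scale Tbx21 had 1.33 and 4.87 CPM in the WT libraries and 34.3 and 34.3 CPM in KO. Both KO libraries lay far above both WT libraries, and the KO pair was almost level. The 11 reads of WT replicate 1 give 0.681 CPM of the library total, with an exact 95% Poisson interval of 0.340 to 1.22 that covers counting error only. The fitted log2 fold change was 3.41 (standard error, SE, 0.66), and the KO mean was 7.05 times WT replicate 2.

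Itgax (ENSMUSG00000030789), which encodes the CD11c chain of an integrin, lies at chr7:128129547-128150656. It had 71 and 390 reads in the WT libraries and 4787 and 5735 reads in the KO libraries, or 8.57 and 18.6 CPM against 241 and 221 CPM. This was the largest difference of the 8 genes, with a log2 fold change of 4.08 (SE 0.51) and a KO mean 12.4 times WT replicate 2. Of its 4803 annotated exonic bases, a length equal to 85.7% and 92.5% was listed above low coverage in KO, against 0% and 6.75% in WT. Which threshold defines low coverage is not given in the sources used here. For this gene the authors' deposited table, which lists 1 of the 8 genes, gives a fold change of 19.2.

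Fcrl5 (ENSMUSG00000048031), at chr3:87435885-87457836, encodes an Fc receptor-like protein of B cells that can dampen B cell receptor signals. It had 13 and 155 reads in the WT libraries and 915 and 1082 reads in the KO libraries, or 1.57 and 7.39 CPM against 46.0 and 41.7 CPM. Every KO value was again above every WT value. The log2 fold change was 3.24 (SE 0.78), and the KO mean was 5.93 times WT replicate 2. Of the 8 genes it is the one most tied to B cells by its known expression. Its level ran beside that of Tbx21: the ratio of Tbx21 to Fcrl5, per exonic length, was 1.18 and 0.920 in WT and 1.04 and 1.15 in KO.

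Zeb2 (ENSMUSG00000026872), at chr2:44983634-45117395, encodes a zinc finger repressor that acts downstream of T-bet in NK cells and some T cells. It had 104 and 978 reads in the WT libraries and 1580 and 2412 reads in the KO libraries, or 12.6 and 46.6 CPM against 79.5 and 92.9 CPM. The KO libraries were above both WT libraries, by much less than for the first 3 genes. The log2 fold change was 1.54 (SE 0.69), and 0.89 without WT replicate 1. The antisense gene Gm13476 overlaps Zeb2, with 18 and 133 reads in the WT libraries and 272 and 328 reads in the KO libraries. The counting strand is not stated, so some reads may be shared.

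**Figure D1:**
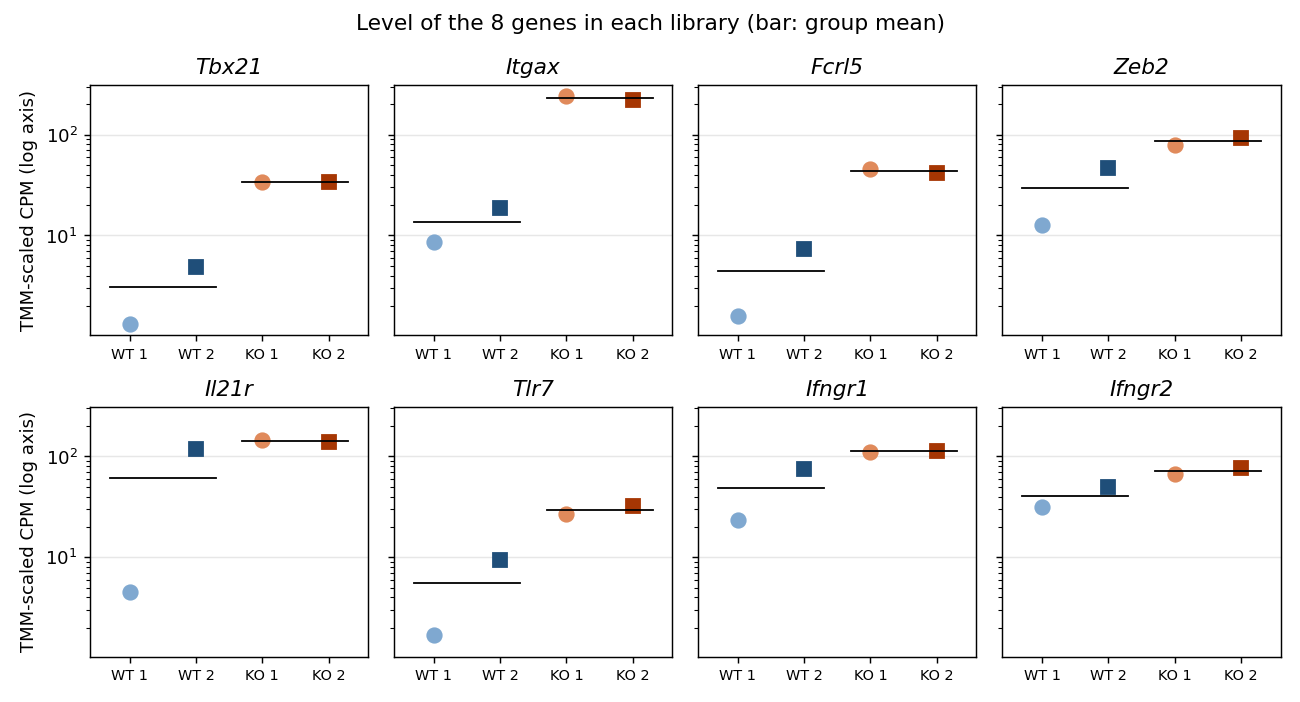
TMM-scaled CPM on a log axis for each of the 8 genes, 1 point per library (2 WT, 2 KO) with a bar at each group mean. The KO libraries lie above both WT libraries in all 8 panels, with the widest distance in Itgax (221 and 241 CPM in KO, 8.57 and 18.6 CPM in WT), and WT replicate 1 is the lowest library in each.

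Il21r (ENSMUSG00000030745), at chr7:125603429-125633570, encodes the specific chain of the IL-21 receptor. It had 37 and 2462 reads in the WT libraries and 2874 and 3608 reads in the KO libraries, or 4.47 and 117 CPM against 145 and 139 CPM. WT replicate 2 sat close to the KO libraries, and only WT replicate 1 was low. The log2 fold change of 1.21 (SE 1.44) became 0.28 without WT replicate 1 and 4.97 without WT replicate 2, so the WT library used decides the value.

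Tlr7 (ENSMUSG00000044583), an X-linked gene at chrX:167304929-167330558, encodes the endosomal sensor of single-stranded RNA. It had 14 and 197 reads in the WT libraries and 539 and 833 reads in the KO libraries, or 1.69 and 9.40 CPM against 27.1 and 32.1 CPM. Its log2 fold change was 2.37 (SE 0.83), and 1.66 without WT replicate 1. The KO mean was 3.15 times WT replicate 2, below the ratios of Tbx21, Itgax and Fcrl5 and above those of the other receptors. Sex went with genotype in these libraries: Xist had 2088 and 5314 reads in the WT libraries and 3 and 34 reads in the KO libraries, and the Y-linked Eif2s3y had 1 and 6 in WT and 767 and 1083 in KO. Sex and genotype cannot be told apart for any gene here, X-linked or not.

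Ifngr1 and Ifngr2 encode the ligand-binding and the signal-transducing chain of the interferon gamma receptor. Ifngr1 (ENSMUSG00000020009), at chr10:19591949-19610229, stood at 23.2 and 74.6 CPM in the WT libraries and at 112 and 112 CPM in KO. Ifngr2 (ENSMUSG00000022965), at chr16:91547072-91565169, stood at 31.3 and 49.6 CPM in the WT libraries and at 67.0 and 76.4 CPM in KO. Both chains were higher in KO than in either WT library, by small margins over WT replicate 2 (1.5 times for Ifngr1 and 1.45 times for Ifngr2). The log2 fold changes were 1.19 (SE 0.62) for Ifngr1 and 0.83 (SE 0.31) for Ifngr2, the smallest of the 8, and 0.59 and 0.54 without WT replicate 1.

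All 8 genes passed the filter on low counts, and the KO libraries lay above both WT libraries for 8 of 8. Over all 20695 genes tested, 34.3% had the KO libraries above both WT libraries. The median log2 fold change of the 8 genes was 1.95, beside 0.01 over all genes tested. Against the second WT library alone it was 1.28 and against the first alone 4.39, beside 0.00448 and 0.06 over all genes. Of the 8, 1 gene (Itgax) was past an adjusted p of 0.05 in edgeR's quasi-likelihood test, where 1.04% of all genes tested were called higher and 2.18% lower. The choice of the 8 genes used this comparison, so nothing is read from these counts. The call of Itgax was lost with library totals alone, with a replicate block and without either KO library, where 0 genes of the whole table were called. Scaling by library totals alone raised the median of all genes to 0.60 and that of the 8 genes to 2.26, and all 8 values stayed positive.

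**Figure D2:**
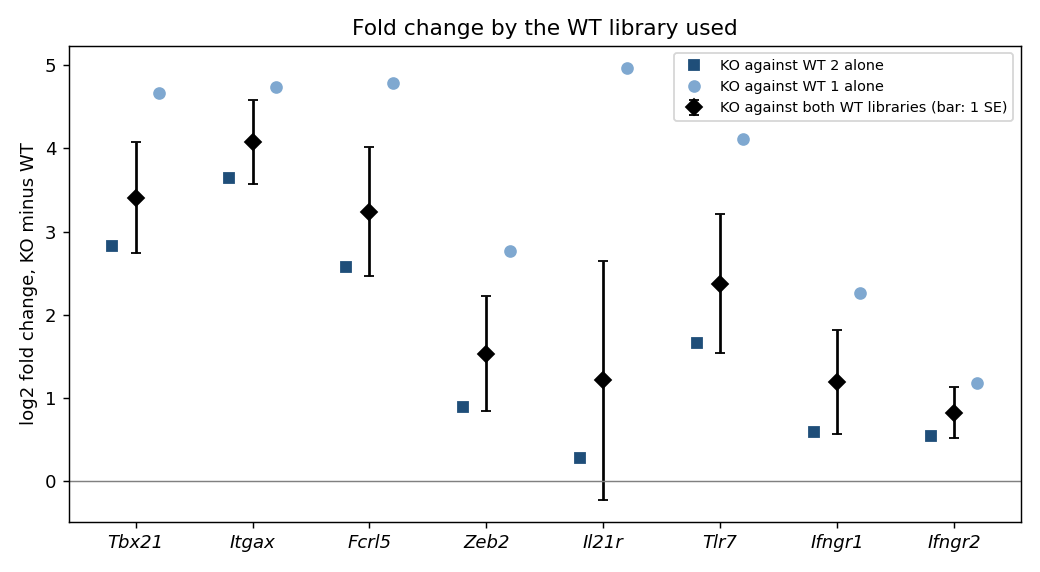
The log2 fold change (KO minus WT) of each gene against both WT libraries (diamonds, bars of 1 SE), against WT replicate 2 alone (squares) and against WT replicate 1 alone (circles). Itgax lies between 3.64 and 4.73 whichever WT library is used, whereas Il21r runs from 0.28 to 4.97.

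Levels of different genes were compared per kilobase of annotated exon, as CPM of the library total, because longer transcripts give more reads. In KO the order was Itgax (63.9 and 59.5 CPM per kilobase), Il21r (55.4 and 54.1), Ifngr1 (50.2 and 51.0), Ifngr2 (22.7 and 26.2), Tbx21 (17.5 and 17.8), Fcrl5 (16.9 and 15.5), Tlr7 (8.46 and 10.2) and Zeb2 (5.08 and 6.03). This order was the same in both KO libraries. The nearest values of Tbx21 and Fcrl5 (17.5 and 16.9) lay closer together than the values of Fcrl5 in the KO libraries, and those of Itgax and Il21r (59.5 and 55.4) closer than the values of Itgax. In WT replicate 2 the order began with Il21r (41.4), Ifngr1 (30.8) and Ifngr2 (15.4). Itgax (4.54) came the fourth there, followed closely by Zeb2 (2.74), Tlr7 (2.70), Fcrl5 (2.49) and Tbx21 (2.29). Itgax thus went from far below the receptor chains in that library to the first place in KO. Tbx21, last in that library by small margins, stood beside Fcrl5 and above Tlr7 and Zeb2 in KO. WT replicate 1 was led by Ifngr2 (4.26) and Ifngr1 (4.18), with the other 6 genes between 0.212 and 0.916. The value of Zeb2 rests on 19942 exonic bases summed over all its annotated transcripts and this total lowers its level per kilobase.

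Reads of each gene were next set against the reads of cell markers in the same library, a ratio that does not depend on scaling between libraries. Per 1000 reads of the B cell markers, Tbx21 had 3.66 reads in WT replicate 2 and 16.4 and 17.4 in KO, 4.63 times as many. Itgax had 14.0 in WT replicate 2 and 116 and 112 in KO (8.14 times), and Fcrl5 had 5.56, 22.1 and 21.2 (3.89 times). Relative to B cell marker reads, these 3 genes were thus above WT replicate 2 and below WT replicate 1 in both KO libraries. Tlr7 was 2.07 times and Zeb2 1.22 times its ratio in WT replicate 2. Ifngr1 (0.987 times), Ifngr2 (0.952 times) and Il21r (0.793 times) were at or below it. In WT replicate 1, with almost no B cell marker reads, all 8 ratios were higher than in KO, from 43.5 for Tbx21 to 1024 for Ifngr2, so 0 of 8 genes had KO above both WT libraries by this measure, where 2.2% of all genes tested had.

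Against T cell markers all 8 genes were above WT replicate 2 in both KO libraries, led by Itgax (16.7 times) and Tbx21 (9.48 times), while WT replicate 1, with almost no T cell reads, was higher still, so that 0 of 8 were above both (2.6% of all genes tested). Against monocyte and macrophage markers the 8 genes split. Tbx21 had 5.51 and 11.8 reads per 1000 in WT and 21.4 and 23.0 in KO, Itgax 35.6 and 45.3 in WT and 150 and 148 in KO, and Fcrl5 6.52 and 18.0 in WT and 28.7 and 27.9 in KO. Those 3 of 8 genes were above both WT libraries relative to the macrophage markers, as were 3.06% of all genes tested. The other 5 were below WT replicate 2 on average, at 0.840 times its ratio for Tlr7, 0.493 for Zeb2, 0.400 for Ifngr1, 0.386 for Ifngr2 and 0.321 for Il21r. Ratios to NK and dendritic cell markers were added after the other values had been seen, and there 6 of 8 and 5 of 8 genes had KO above both WT libraries, where 9.69% and 5.58% of all genes tested had. The 8 genes were chosen by KO and WT levels in these libraries, so nothing is read from these shares. Per 1000 NK marker reads, Tbx21 had 131 and 140 reads in the WT libraries and 783 and 856 reads in the KO libraries. Per 1000 dendritic cell marker reads, Itgax had 703 and 86.0 in WT and 1404 and 1326 in KO.

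**Figure D3:**
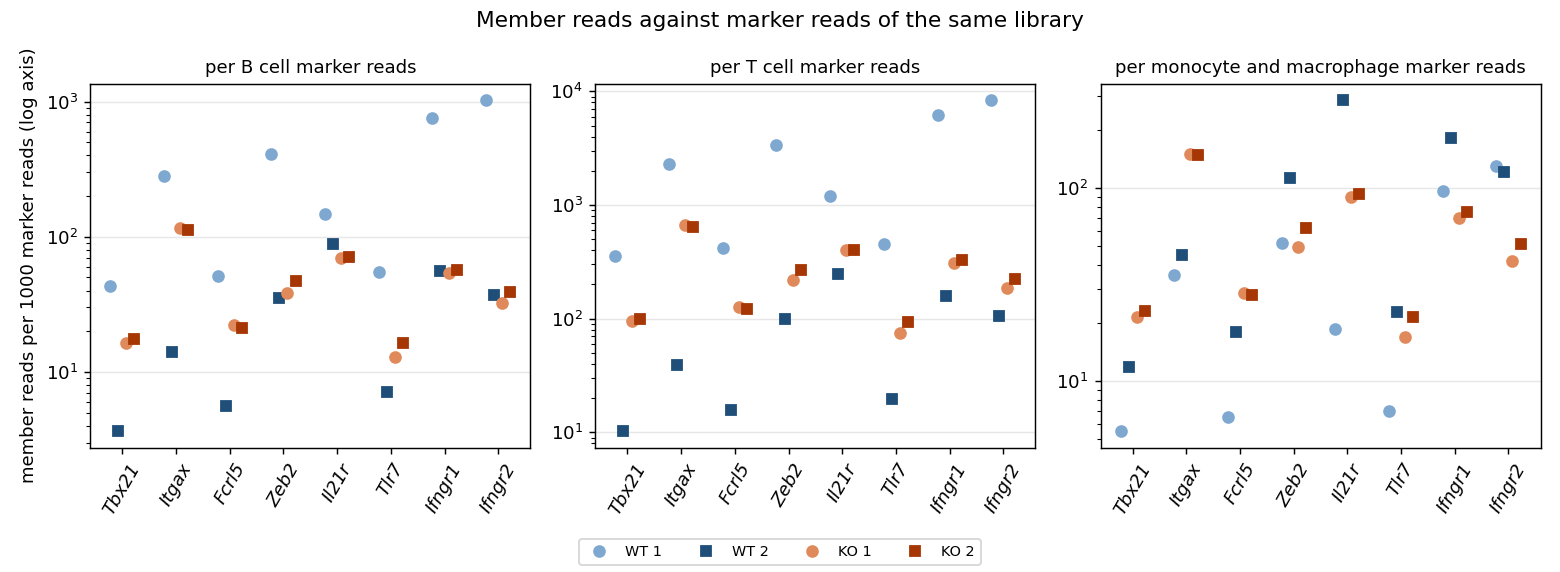
Reads of each gene per 1000 marker reads of the same library, on log axes, for B cell markers, T cell markers and monocyte and macrophage markers; 1 point per library. Tbx21, Itgax and Fcrl5 lie above WT replicate 2 in all 3 panels and above both WT libraries in the macrophage panel (Itgax 150 and 148 in KO, 35.6 and 45.3 in WT).

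For each gene, the 2 others with the most similar profile were sought by Euclidean distance of mean-centred log2 CPM over the 4 libraries, among 9835 protein-coding genes that had a mean log2 CPM of at least 3 and were not predicted or immune receptor genes. Tbx21 was nearest to Fcgr2b (distance 0.10), the inhibitory IgG receptor of B and myeloid cells, and to Cxcr3 (0.14), a chemokine receptor of type 1 lymphocytes. Itgax was nearest to Gbp10 (0.05), a guanylate-binding protein with close paralogs, and to Art3 (0.16), whose span overlaps Cxcl10 on the opposite strand. Fcrl5 was nearest to Slc7a11 (0.12) and Zbp1 (0.14). Zeb2 ran closest to BC028528 (0.09) and Foxp3 (0.14), and Tlr7 to Tnf (0.14) and Lrrk2 (0.16). The nearest genes were Myo1g (0.06) and Cd83 (0.10) for Il21r, Fnbp1 (0.02) and Hdgfrp3 (0.03) for Ifngr1, and Zfp182 (0.03) and Gnl3 (0.03) for Ifngr2. Among the 8 genes themselves, Tbx21 and Fcrl5 were closest (0.29) and Il21r and Ifngr2 farthest apart (3.34). With 4 libraries of which 1 stands apart, many genes have similar profiles.

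Around these genes, 51 others were listed in 8 groups: ligands, partner chains, signalling proteins, relatives and further markers of T-bet B cells. All 51 were tested, and 1, Ifng, rose past the threshold in edgeR's quasi-likelihood test, with 0 falling, where 1.04% of all genes tested were called higher. At an unadjusted p under 0.05 there were 21 of the 51, and 26.9% of all genes tested. In 41 of the 51 the KO libraries were above both WT libraries and in 1 below, where 34.3% and 33.3% of all genes tested were. Without WT replicate 1, 42 of the 51 were called, where 20.9% of all genes were called higher and 22.8% lower, but a single WT library gives no spread of its own. The sign of 7 of the 51, Ccr7, Zeb1, Id2, Bcl6, Jak1, Irak1 and Traf6, turned without that library.

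In the interferon gamma group, Ifng, the cytokine that Ifngr1 and Ifngr2 bind, had 1 and 8 reads in the WT libraries and 199 and 248 reads in the KO libraries. Its log2 fold change was 5.06 (SE 0.53, edgeR adjusted p = 0.0456) and 4.66 without WT replicate 1. The call was lost with library totals alone, with a replicate block and without either KO library, where 0 of the 51 were called. Irf1, a transcription factor gene induced by interferon gamma, had a log2 fold change of 2.59 (edgeR adjusted p = 0.0782). Socs1, the feedback inhibitor gene, singled out after its values were seen, had 3 and 239 reads for WT and 1721 and 1906 for KO (log2 fold change 3.71, edgeR adjusted p = 0.202). The median of the group's 8 genes was 2.52, and 1.85 without WT replicate 1. Per exonic length, Ifng reads were 0.0115 and 0.0112 of those of Ifngr1 in WT and 0.196 and 0.187 in KO. The ligand thus stood much higher in KO relative to its receptor, while Ifngr1 to Ifngr2 went from 0.981 and 1.99 in WT to 2.21 and 1.94 in KO.

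The IL-21 group had 0 of 8 called, with a median of 1.76 (1.06 without WT replicate 1). Il21, the cytokine of helper T cells, had 1 and 5 reads in the WT libraries and 54 and 38 reads in the KO libraries (log2 fold change 3.35, edgeR adjusted p = 0.0726). Per exonic length, Il21 reads were 0.0171 and 0.00128 of those of Il21r in WT and 0.0119 and 0.00666 in KO. Both KO ratios were above that of WT replicate 2 and below that of WT replicate 1, which rests on 1 Il21 read. The groups were thus not separated over all libraries, as they were for Ifng to Ifngr1, where WT replicate 1 also had 1 read of the ligand. Il2rg, the shared receptor chain that pairs with Il21r, stood at 4.83 and 147 CPM in the WT libraries and at 249 and 212 CPM in KO, so that WT replicate 2 lay much nearer to KO than WT replicate 1 did, as for Il21r. Prdm1, which encodes the plasma cell factor Blimp-1, had a log2 fold change of 2.86 (edgeR adjusted p = 0.0604) and the feedback inhibitor gene Socs3 of 3.28 (edgeR adjusted p = 0.082).

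In the TLR7 group 0 of 10 genes were called, and the median was 0.97 (0.81 without WT replicate 1). Unc93b1, the chaperone that carries TLR7 to endosomes, stood at 47.5 and 191 CPM in the WT libraries and at 535 and 527 CPM in KO (log2 fold change 2.15, edgeR adjusted p = 0.182). Tlr8, the neighbouring X-linked receptor gene, had 1.69 and 1.34 CPM in the WT libraries and 7.29 and 9.48 CPM in KO (log2 fold change 2.48, edgeR adjusted p = 0.0541). Tlr9, the DNA sensor gene, had a log2 fold change of 2.85 (edgeR adjusted p = 0.102) and the adaptor gene Myd88 of 1.10 (edgeR adjusted p = 0.111). The ratio of Tlr7 to Tlr9, per exonic length, was 0.373 and 0.579 in WT and 0.339 and 0.447 in KO, with no separation of the groups.

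Of the surface markers of T-bet B cells, 0 of 8 were called, with a median of 1.95 (1.24 without WT replicate 1). Cxcr3 stood at 2.66 and 10.7 CPM in the WT libraries and at 73.7 and 71.1 CPM in KO (log2 fold change 3.41, edgeR adjusted p = 0.088). Itgam had a log2 fold change of 2.36 (edgeR adjusted p = 0.0953). Follicular surface genes, which T-bet B cells carry at low levels, had 0 of 5 called and a median of 1.13 (0.15 without WT replicate 1). Among them Cxcr5 and Cr2 had log2 fold changes of 1.59 and 1.19, and 0.62 and 0.22 without WT replicate 1. Fcer2a, which encodes CD23 and was singled out after its values were seen, had 1 and 3183 reads in the WT libraries and 747 and 978 reads in the KO libraries, a log2 fold change of −1.02 against both WT libraries and −2.01 against WT replicate 2.

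**Figure D4:**
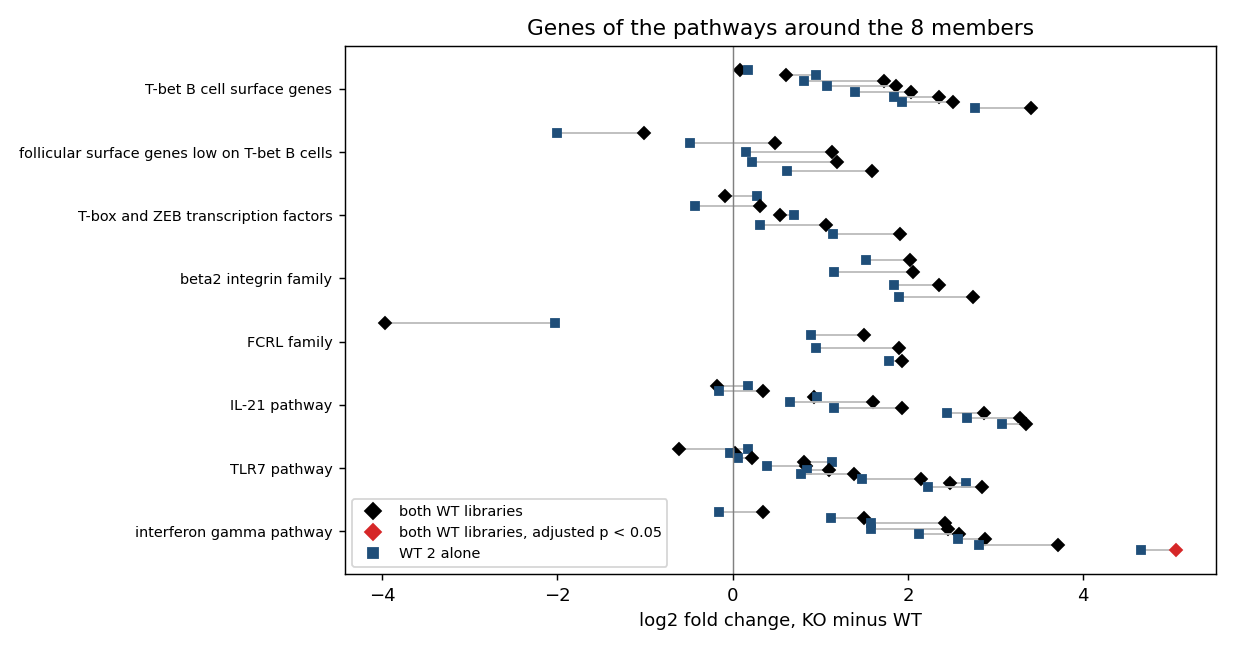
The log2 fold change (KO minus WT) of the listed genes in their 8 groups, against both WT libraries (diamonds) and against WT replicate 2 alone (squares), joined by a line per gene. Fcrl6, at 0 reads in WT, is left out. Most points lie right of 0, Ifng (5.06) is the 1 gene past the threshold, and Fcer2a (−1.02 and −2.01) and Fcrls (−3.97 and −2.03) lie left of 0 by both measures.

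Relatives of the members went different ways. CD11c pairs with the shared chain CD18, encoded by Itgb2, which stood at 13.3 and 123 CPM in the WT libraries and at 486 and 428 CPM in KO (log2 fold change 2.74, edgeR adjusted p = 0.225). The 4 genes of that integrin group had a median of 2.21 (1.68 without WT replicate 1) with 0 called, and Itgad had a log2 fold change of 2.03 (edgeR adjusted p = 0.121). Itgax to Itgam, per exonic length, was 0.977 and 0.808 in WT and 2.93 and 2.70 in KO, so the 2 CD11 genes stood in another proportion. Itgax to Itgb2 was 0.410 and 0.0961 in WT and 0.315 and 0.328 in KO. Both KO ratios were above that of WT replicate 2 and below that of WT replicate 1 (71 Itgax and 110 Itgb2 reads), so the groups were not separated. Among Fc receptor-like genes, 0 of 5 were called and the median was 1.90 (0.95 without WT replicate 1), also with Fcrl6 at its bound. Fcrl6 had 0 reads in both WT libraries and 90 over the KO libraries, at least 19.1-fold higher against a floor of 3 reads over the WT group (edgeR adjusted p = 0.0542). Fcrlb had 3 and 10 reads in the WT libraries and 40 and 35 reads in the KO libraries, and Fcrls, a macrophage and microglia gene, had 120 and 45 in WT and 8 and 16 in KO.

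The group labelled T-box and ZEB held Eomes, Zeb1, Runx3, Bhlhe40 and Id2, of which only Eomes and Zeb1 belong to those families. Of these transcription factor genes 0 of 5 were called, with a median of 0.54 (0.31 without WT replicate 1). Eomes, the second T-box factor gene of cytotoxic lymphocytes, stood at 0.845 and 6.01 CPM in the WT libraries and at 7.70 and 7.21 CPM in KO (log2 fold change 1.06, edgeR adjusted p = 0.483). Tbx21 to Eomes, per exonic length, was 2.62 and 1.35 in WT and 7.43 and 7.96 in KO. The 6 NK markers, Eomes among them, summed to 5.20 and 40.7 CPM of the library total for WT and to 55.8 and 51.9 CPM for KO. After TMM scaling 3 of 6 had KO above both WT libraries and 1, Ncr1, below both. Of all genes tested, 34.3% were above both and 33.3% below both. Bhlhe40 and Runx3 had log2 fold changes of 0.54 and 1.91 (edgeR adjusted p = 0.229 and 0.261). Zeb2 to its relative Zeb1 was 0.754 and 0.503 in WT and 1.23 and 1.28 in KO.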

How the data were processed

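Ribosomal RNA was removed from total RNA and 4 libraries (2 WT, 2 KO) were read by Ion Torrent sequencing, per the labels. The authors deposited whole-number read counts per gene, not normalized, per the file headers. The submitters' processing notes name mm10 and DESeq2 1.62 without a role; which aligner and counter were used is not stated. The listed gene length spans the whole gene, so reads in introns may have been counted. The authors' deposited table of log2 fold changes lists only genes with small p-values, and its linear fold for Itgax, a ratio, was copied. Average coverage (4 columns) was not used.

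Depth was 15604247 to 20067004 reads per library. The test was edgeR's quasi-likelihood test (edgeR 4.0.16, R 4.3.3) after TMM scaling and filterByExpr (minimum count 10, minimum total 15), with Benjamini-Hochberg adjustment over 20695 genes and a threshold of 0.05. Each standard error is the fold change over the square root of F. The fit was tested on simulated data. Alternatives were DESeq2 size factors, library totals, no filter, a stricter filter (1 CPM in 2 libraries, 20 reads in all), DESeq2 1.42.0, limma-voom (3.58.1), a replicate block and each library left out.

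Exon lengths are unions over GENCODE M21 transcripts. All 107 genes of the 15 lists and the 8 members together matched the table, Adgre1 by its Ensembl identifier. Named genes are the 8 members, Becn1, up to 3 genes per pathway list with the smallest p, Il21, Il2rg, Ifng, Itgb2 and Unc93b1, and 2 nearest profiles per member (mean log2 CPM of at least 3, computed with a prior count of 2). Some genes that this rule names are not reported here. Xist, Eif2s3y, Zeb1 and other ratio partners were named after their values were seen. The members, lists and rules were chosen with earlier results of these data known. Replicate numbers come from the titles and are not stated to pair samples.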

Additional observations from a re-analysis of the deposited data

How the results depend on the processing

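The log2 fold changes of the 8 genes were positive in 88 of 88 values over the 11 alternatives other than the crossed pairing below, and their median, 1.95, ranged from 1.28 to 4.39 when each library was left out. These alternatives reuse the libraries by which the 8 genes were chosen, so nothing is read from the count of positive values. The whole-table counts of 216 genes higher and 451 lower became 0 and 0 with library totals alone (1472 and 1505 at an unadjusted p under 0.05), 542 and 1188 with no filter, and 1325 and 2430 with DESeq2. Leaving out each library gave 0 to 6887 higher and 0 to 6922 lower. The 0 counts came without either KO library (732 and 1318 unadjusted without replicate 1, 743 and 1342 without replicate 2), and 4573 and 4988 came without WT replicate 1. Of the 51 pathway genes, 1 was called, and 0 with library totals, 9 with no filter, 20 with DESeq2, 3 with limma-voom, 2 with the crossed pairing and 0 to 48 when each library was left out. The median over the 8 genes of log2 marker ratios in KO minus WT was −0.57 for B cell, −0.31 for T cell and 0.46 for macrophage markers. Without WT replicate 1 it reversed to 0.66, 1.69 and −0.65, and leaving out each library gave ranges of −1.64 to 0.66, −2.15 to 1.69 and −0.65 to 1.73. The lone library left in a group is assumed to vary like the other group.

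A replicate block gave 0 calls higher and 0 lower (1866 and 2734 unadjusted), and 0 of the 51 pathway genes (28 unadjusted). Deviations of same-numbered WT and KO libraries correlated at −0.11, so a crossed pairing, chosen after seeing the data, was also run as a block (202 higher, 643 lower). The cause of these changes was not tested. In WT replicate 1, 3 of the 8 genes had fewer than 15 reads, which limits their precision there.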

Other observations

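Coverage along the genes gave a second view of the same reads. Bases listed above low coverage in Tbx21 numbered 0 in both WT libraries and 786 and 1261 in KO replicates 1 and 2, and in Fcrl5 0 in both WT libraries and 1035 and 1177 in KO. For Tlr7 they numbered 346 and 986 in KO and 0 in both WT libraries. Il21r was covered much alike in WT replicate 2 (2560 bases) and KO (2670 and 2806), and so was Ifngr1 (1771, then 1938 and 2013), while both genes had 0 such bases in WT replicate 1.

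Other surface genes that T-bet B cells share with activated B cells were named after their values were seen. Fas, the death receptor gene, had 23 and 233 reads in the WT libraries and 578 and 758 in KO. Cd86, a costimulatory ligand gene, had 37 and 664 for WT and 1308 and 1754 for KO. Tnfrsf13b, which encodes the receptor TACI, had 20 and 1035 for WT and 1650 and 2315 for KO. None of these 3 passed edgeR's quasi-likelihood test (adjusted p = 0.172, 0.291 and 0.451). Other genes of the same list of 8 differed less. Sox5 stood at 15.7 and 13.9 CPM in the WT libraries and at 16.2 and 15.2 CPM in KO (log2 fold change 0.09). Cd80 had a log2 fold change of 0.61. In 7 of the 8 the KO libraries were above both WT libraries, where 34.3% of all genes tested were.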
